A study of Arabidopsis thaliana with 12 samples.

Results

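Gene expression was compared between wild-type pistils and wild-type inflorescence meristems of Arabidopsis thaliana by RNA sequencing, with 3 libraries of each. These are 6 of the 12 libraries of the study, and they were chosen by genotype and tissue alone. The pistil libraries came from wild-type plants of the ecotype Ler (Landsberg erecta), whose ERECTA receptor kinase gene is mutated, and held pistils from stage 12 on and young siliques as late as stage 16. The meristem libraries came from wild-type plants of the ecotype Col-0 (Columbia) and held inflorescence apices that were dissected down to the meristem and its youngest buds, of stages 3 to 4 at most. About 20 organs were pooled for each library, and no treatment is given for any plant. The other 6 libraries, pistils of the mutant ful-1 in Ler and meristems of the T-DNA insertion mutant ful-7 in Col-0, lack functional FRUITFULL (FUL) and were used only to set the same tissue difference beside that of the wild types. Tissue and ecotype change together in both pairs of groups, so that a difference between organs, a difference between strains and a loss of Ler reads on the Col-0 based genome cannot be told apart.

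An inflorescence meristem keeps a small dome of stem cells and sets off floral meristems at its flanks, which in turn form sepals, petals, stamens and carpels. Its state is held by homeodomain proteins such as WUSCHEL and the KNOX family, and floral fate is set by LEAFY, APETALA1 and CAULIFLOWER. The pistil is the end product of that path: fused carpels whose valves, valve margins, replum and style are patterned by MADS-box and basic helix-loop-helix factors, with ovules inside that carry the egg apparatus. Around pollination the pistil also receives pollen, whose tubes grow through its transmitting tract.

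The pistil libraries held 30528403, 31977805 and 34276079 counts and the meristem libraries 58594593, 38340498 and 59830057. Spearman correlations across genes, which are no independent replicates, were 0.9841 to 0.9874 among pistil libraries, 0.9713 to 0.9782 among meristem libraries and 0.8824 to 0.8962 between the tissues. The labels do not say whether the libraries of a group came from separate plantings, so the p-values measure the spread between these libraries only. Meristem library 3 stood apart from the other two in light-harvesting genes, whose summed level was 17800 CPM (counts scaled to library size) there and 31700 and 33300 CPM in libraries 1 and 2, and in stamen genes. Pistil library 2 held the least pollen-gene RNA of its group. Here and below, sets of 3 values stand in the order of libraries 1, 2 and 3. FUL itself, which is expressed in both tissues, stood at 107, 110.0 and 99.6 CPM in pistils and 97.2, 108 and 158 CPM in meristems. Its levels overlapped between the groups (log2 fold change, pistil over meristem, -0.20 ± 0.18 SE, edgeR adjusted p = 0.36), and the sign of the difference turned without meristem library 3 (0.03).

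Markers of the labelled tissues are given first. Several of them, such as STK, INO, LFY and AP1, are also members of the gene lists below, so the markers and the lists are no separate checks. The 6 ovule and egg apparatus markers summed to 166, 202 and 174 CPM in pistils and to 2.71, 2.22 and 2.44 CPM in meristems, and all 6 were higher in pistils. The 8 carpel markers summed to 330, 374 and 333 CPM in pistils and to 63.4, 59.3 and 49.8 CPM in meristems, with 6 higher in pistils. The 4 floral meristem markers summed to 161, 161 and 172 CPM in meristems and to 2.19, 2.19 and 1.37 CPM in pistils. The carpel, ovule and floral meristem markers thus go with the labels, although the carpel and ovule sets share STK and INO. The 5 floral organ identity markers of young buds were divided, with 3 higher in pistils and 2 in meristems. They summed to 503, 542 and 486 CPM in pistils and to 227, 190 and 127 CPM in meristems. Of the 11 anther and tapetum markers, given below, 6 were higher in meristems, 0 in pistils and 5 were too low to test. Every one that could be tested was thus higher in meristems, and its bearing on the stated bud stages was not tested. Of the 6 shoot meristem markers 5 were higher in meristems, and the remaining CLAVATA3 gene (CLV3) was too low to be tested, with 17, 10 and 26 counts in the meristem libraries and 0, 1 and 0 in the pistil libraries. In bulk tissue such as this, fewer cells of a type and less RNA per cell cannot be told apart.

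The difference between the tissues was wide. Of 24009 genes tested, 14614 passed the quasi-likelihood test of edgeR at an adjusted p of 0.05 (60.9%), 7636 of them higher in pistils (31.8%) and 6978 higher in meristems (29.1%). A change of at least 4-fold was also reached by 4808 genes (20.0%), of which 3446 (14.4%) were higher in pistils and 1362 (5.67%) were higher in meristems. The 4-fold genes are called pistil-marking and meristem-marking below. Pistil-marking genes made up 6.8 to 8.57% of all counts in the pistil libraries and 0.53 to 0.596% in the meristem libraries. Meristem-marking genes made up 4.21 to 4.46% of the counts in meristems and 0.445 to 0.496% in pistils. The median log2 fold change over all genes tested was 0.01. With so many genes past the test, a list of genes is read below against these shares and this median, and "higher" always means past the adjusted p of 0.05.

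**Figure D1:**
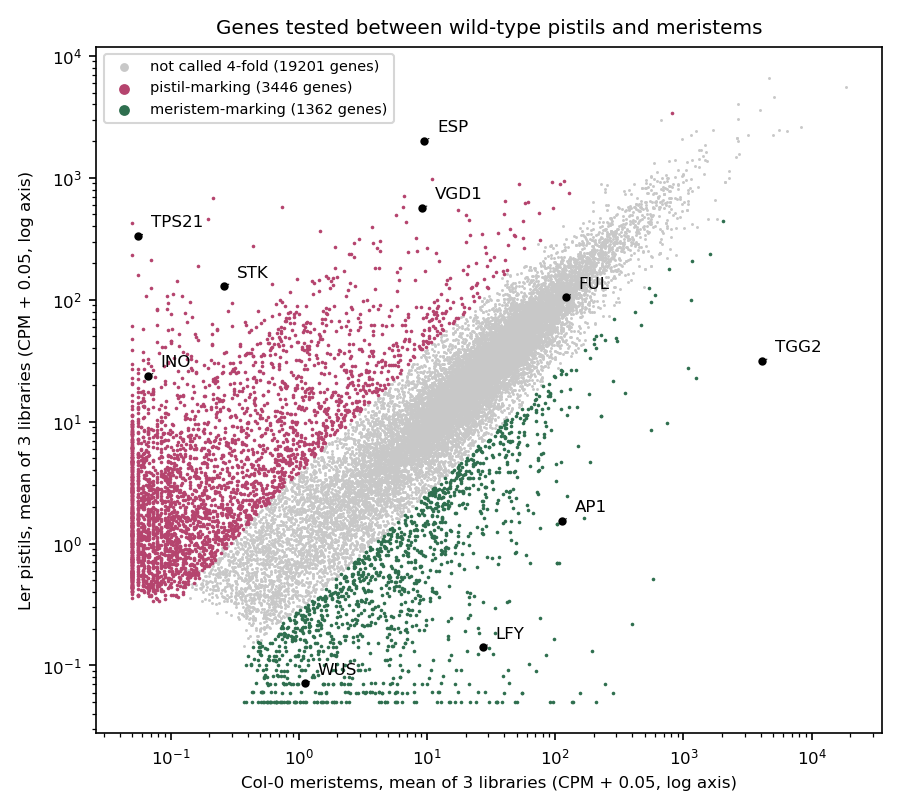
Mean CPM of 3 Ler pistil libraries (vertical, log axis) against that of 3 Col-0 meristem libraries (horizontal, log axis) for the 24009 genes tested, with 0.05 added to each mean. Coloured points are the 3446 genes at least 4-fold higher in pistils and the 1362 at least 4-fold higher in meristems, and they lie on either side of the diagonal over the whole range of levels.

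**Figure D2:**
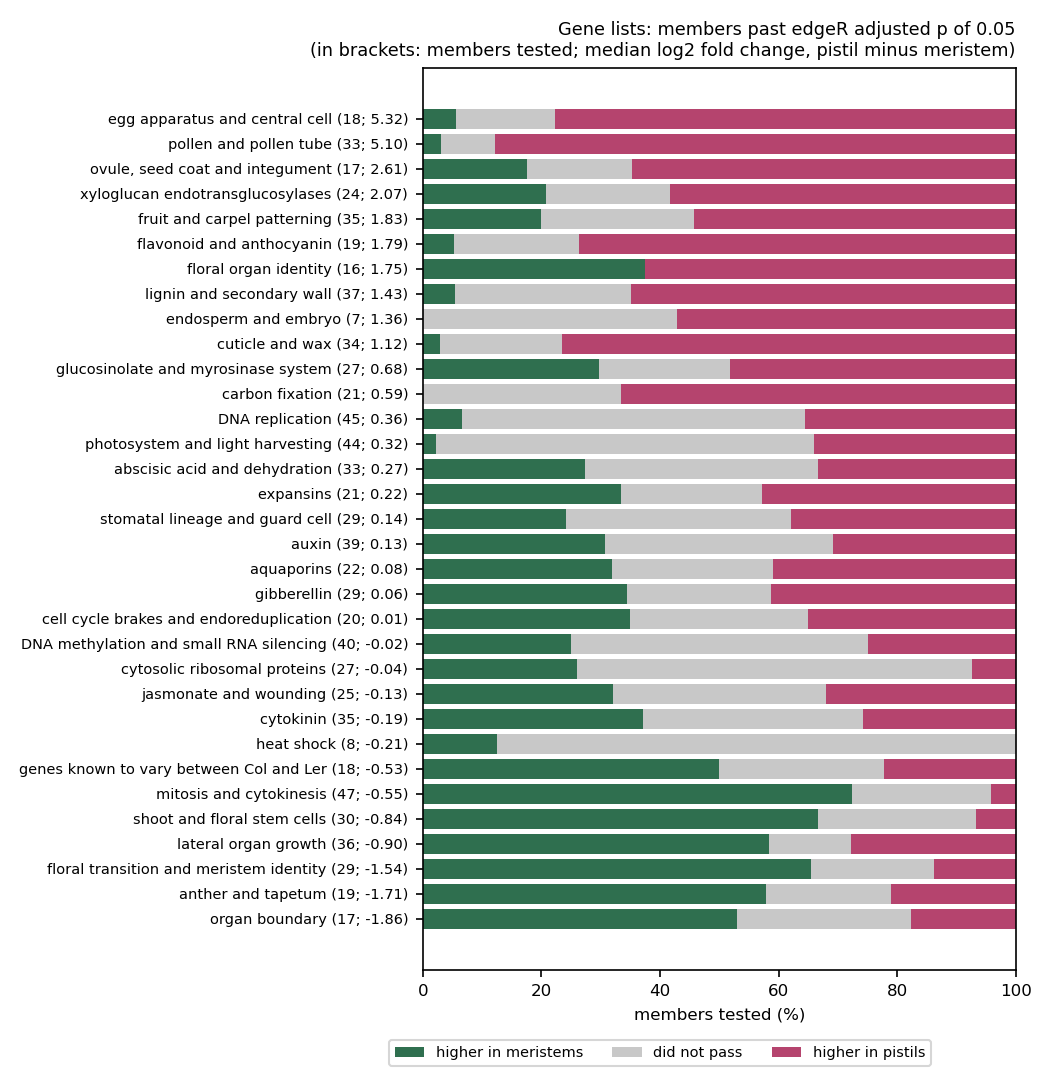
Share of tested members of 33 gene lists that were higher in pistils, higher in meristems or did not pass an edgeR adjusted p of 0.05 (horizontal axis, percent of members tested), with the number tested and the median log2 fold change in brackets. Pollen, ovule, egg apparatus, cuticle and flavonoid lists lie mostly on the pistil side, and floral transition, stem cell and mitosis lists on the meristem side.

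Genes that pattern the carpel and the fruit were on the whole higher in pistils. Of the 35 members tested, 19 were higher in pistils, 7 in meristems and 9 did not pass (median log2 fold change 1.83). The paired MADS-box genes SHATTERPROOF1 and SHATTERPROOF2 (SHP1, SHP2), which specify the valve margin where the fruit opens, were both among them. SHP1 stood at 85.2, 76.1 and 92.7 CPM in pistils and 10.5, 10.7 and 9.68 CPM in meristems (log2 fold change 3.04 ± 0.11, edgeR adjusted p = 2.4e-06). SHP2 stood at 66.6, 78.4 and 62.7 CPM in pistils and 1.94, 1.75 and 0.708 CPM in meristems (log2 fold change 5.58 ± 0.35, edgeR adjusted p = 2.1e-05). No pistil library of either gene came near a meristem library, although 56% of the exonic bases of SHP2 overlap another gene and the counts do not separate strands. INDEHISCENT (IND), a basic helix-loop-helix gene that acts below the SHP genes in the valve margin, had 563 counts in pistils and 1 in meristems, a CPM ratio of 912 (95% counting interval 163 to 36080). HAF (listed as CES), a basic helix-loop-helix gene which acts in the transmitting tract through which pollen tubes grow, stood at 134, 164 and 108 CPM in pistils and 0.514, 0.366 and 0.809 CPM in meristems (log2 fold change 7.86 ± 0.30, edgeR adjusted p = 3.1e-06). Its partners BEE1 and BEE3, also of the transmitting tract, averaged 12.4 ± 4.93 CPM in pistils against 0.408 ± 0.0414 CPM in meristems and 8.41 ± 1.78 CPM in pistils against 0.0867 ± 0.106 CPM in meristems (SD, n = 3). The levels of these 3 genes did not overlap between the groups. The share of all genes tested without overlap is not given, so this does not set a gene apart, here or below.

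The list also held genes of style, septum and fruit opening. NGATHA1 and NGATHA2 (NGA1, NGA2), which promote style formation, averaged 28.4 ± 4.81 CPM in pistils against 2.53 ± 0.709 CPM in meristems and 13.3 ± 0.470 CPM in pistils against 0.953 ± 0.383 CPM in meristems (SD, n = 3), and both were higher in pistils. NO TRANSMITTING TRACT (NTT), a zinc finger gene of the septum, averaged 23.3 ± 4.52 CPM in pistils against 5.26 ± 1.34 CPM in meristems (log2 fold change 2.14 ± 0.23, edgeR adjusted p = 0.00019). ADPG1, a polygalacturonase of fruit opening, stood at 1.23, 1.43 and 1.78 CPM in pistils and 0, 0.0785 and 0.0506 CPM in meristems, and was higher in pistils at a low level (log2 fold change 5.14 ± 0.64, edgeR adjusted p = 0.00039). Among the patterning genes there were thus both strongly and weakly expressed ones on the pistil side. ETTIN (ETT), an auxin response factor of gynoecium patterning, was one of the 7 members higher in meristems, with 145, 125 and 183 CPM in meristems and 34.3, 44.9 and 40.2 CPM in pistils (log2 fold change -1.92 ± 0.17, edgeR adjusted p = 8.4e-05). The remaining 6 were RPL, STY2, KAN1 (KAN), KAN2, YAB1 (AFO) and NUB, which act in the replum, the style or in organ polarity and growth. NUBBIN (NUB), a zinc finger gene of young lateral organs, was lowest in pistils, with 0.0995, 0.122 and 0.0584 CPM in pistils and 1.54, 1.05 and 0.910 CPM in meristems (log2 fold change -3.61 ± 0.43, edgeR adjusted p = 0.00032). CRABS CLAW (CRC), needed for nectaries and carpel polarity, did not pass: it stood at 10.2, 8.71 and 3.21 CPM in pistils and 26.7, 19.9 and 8.14 CPM in meristems (edgeR adjusted p = 0.062), though it passed as higher in meristems without meristem library 3 (edgeR adjusted p = 0.0138), in the DESeq2 Wald test (0.0126) and in the fit of all 12 libraries (0.035). SPATULA, LEUNIG and SEUSS did not pass either, and their levels overlapped between the groups. SPATULA passed without meristem library 1 (edgeR adjusted p = 0.0481).

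Ovule and seed coat genes held some of the widest differences of any regulators. Of the 17 members tested, 11 were higher in pistils, 3 in meristems and 3 did not pass (median log2 fold change 2.61). SEEDSTICK (STK), the MADS-box gene that specifies ovules, stood at 119, 143 and 125 CPM in pistils and 0.377, 0.157 and 0.101 CPM in meristems (log2 fold change 9.20 ± 0.34, edgeR adjusted p = 2.7e-06). INNER NO OUTER (INO), a YABBY gene of the outer integument, had 2301 counts in pistils and 3 in meristems, a CPM ratio of 1242 (95% counting interval 425 to 6029). Both genes were thus close to absent from the meristem libraries. BELL1 (BEL1), an integument identity gene, averaged 17.61 ± 1.69 CPM in pistils against 1.07 ± 0.162 CPM in meristems (SD, n = 3; log2 fold change 4.05 ± 0.17, edgeR adjusted p = 4.3e-06). TRANSPARENT TESTA16 (TT16), a MADS-box gene of the inner seed coat layer, stood at 8.39, 10.4 and 13.8 CPM in pistils and 0.0686, 0.0523 and 0 CPM in meristems (log2 fold change 8.03 ± 0.52, edgeR adjusted p = 2.4e-05). The 3 members higher in meristems were AINTEGUMENTA (ANT), SPOROCYTELESS (SPL) and UNE16. ANT, which drives growth in young organs as well as in integuments, averaged 41.8 ± 7.60 CPM in pistils against 106 ± 5.67 CPM in meristems (SD, n = 3), and SPL, needed to start spore mother cells in anther and ovule, stood at 3.05, 1.94 and 0.674 CPM in meristems and 0.0995, 0 and 0.117 CPM in pistils.

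Genes of the egg apparatus and central cell had the highest median of the lists drawn from the pistil's own tissues. Of the 18 members tested, 14 were higher in pistils, 1 in meristems and 3 did not pass (median log2 fold change 5.32). The LURE1 peptides are secreted by synergid cells and attract pollen tubes. LURE1.2 stood at 6.04, 5.27 and 8.39 CPM in pistils and 0.137, 0.0262 and 0.0843 CPM in meristems (log2 fold change 6.17 ± 0.43, edgeR adjusted p = 3.0e-05), and LURE1.3 at 4.54, 3.35 and 5.76 CPM in pistils and 0.0514, 0 and 0 CPM in meristems. LURE1.1 had 148 counts in pistils and 1 in meristems. LURE1.2 and LURE1.3 each hold a stretch near-identical to LURE1.4, so their reads may be split among copies. No such stretch was found for LURE1.1. All 3 genes were higher in pistils. MEDEA (MEA), a Polycomb gene of the central cell and endosperm, averaged 1.51 ± 0.279 CPM in pistils against 0.0540 ± 0.0292 CPM in meristems (SD, n = 3; log2 fold change 4.66 ± 0.42, edgeR adjusted p = 9.6e-05). MLO7 (NORTIA), known from synergids, was the exception: it averaged 0.460 ± 0.0640 CPM in pistils against 1.91 ± 0.403 CPM in meristems and was higher in meristems (log2 fold change -2.04 ± 0.29, edgeR adjusted p = 0.00077). Only 7 of 26 endosperm and embryo genes could be tested. Of the 7 members tested, 4 were higher in pistils, 0 in meristems and 3 did not pass (median log2 fold change 1.36). PHERES1 (PHE1), an imprinted endosperm MADS-box gene, stood at 3.48, 2.95 and 3.04 CPM in pistils and 0.0514, 0.0785 and 0 CPM in meristems (log2 fold change 6.23 ± 0.58, edgeR adjusted p = 0.00011). ICE1, WRKY10 and a homeobox gene of the WOX family, WOX9, were the other 3 higher in pistils, and 7 members passed there without meristem library 3.

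**Figure D3:**
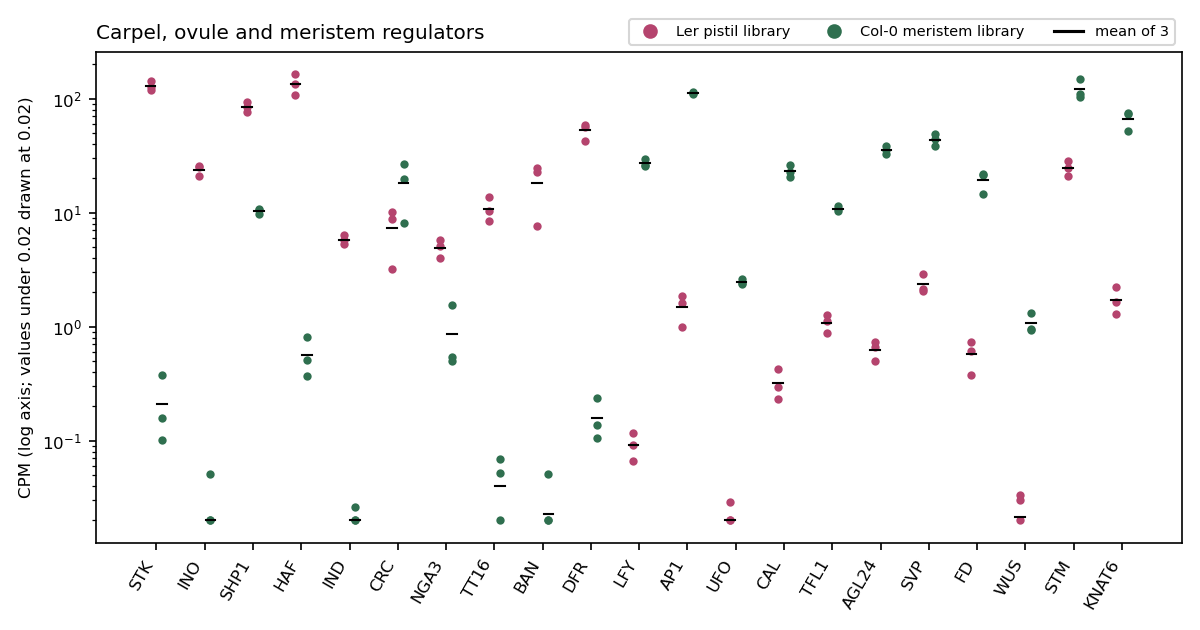
CPM (log axis, values under 0.02 drawn at 0.02) of carpel, ovule and meristem regulators in each of 3 Ler pistil and 3 Col-0 meristem libraries, with a line at the mean of 3. Carpel and ovule genes such as STK and SHP1 have all pistil points above all meristem points, and LFY, AP1 and KNAT6 the reverse. The points of the carpel gene CRC overlap between the tissues.

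Genes of floral fate differed widely between the tissues, on the meristem side. Of the 29 members tested, 4 were higher in pistils, 19 in meristems and 6 did not pass (median log2 fold change -1.54). LEAFY (LFY), the factor that gives a new primordium floral fate, stood at 26.3, 25.4 and 29.7 CPM in meristems and 0.0663, 0.0914 and 0.117 CPM in pistils (log2 fold change -8.15 ± 0.20, edgeR adjusted p = 1.0e-06). APETALA1 (AP1), its partner in floral fate and a sepal and petal gene, stood at 110.0, 113 and 115 CPM in meristems and 1.86, 1.61 and 0.993 CPM in pistils (log2 fold change -6.25 ± 0.21, edgeR adjusted p = 2.0e-06). CAULIFLOWER (CAL), the closest relative of AP1, averaged 0.320 ± 0.0980 CPM in pistils against 23.2 ± 2.93 CPM in meristems (SD, n = 3; log2 fold change -6.17 ± 0.22, edgeR adjusted p = 2.5e-06). None of the 3 genes overlapped between the groups, and LFY was at 0.0663 to 0.117 CPM in the pistil libraries. UNUSUAL FLORAL ORGANS (UFO), an F-box partner of LFY, had 1 count in pistils and 385 in meristems, a meristem to pistil CPM ratio of 238 (95% counting interval 42.4 to 9412).

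The factors that respond to the flowering signal followed the same direction. AGAMOUS-LIKE24 (AGL24) stood at 35.3, 33.0 and 38.5 CPM in meristems and 0.663, 0.731 and 0.497 CPM in pistils (log2 fold change -5.82 ± 0.17, edgeR adjusted p = 1.2e-06), and SOC1 (AGL20), its partner, averaged 9.13 ± 2.49 CPM in pistils against 84.9 ± 3.49 CPM in meristems (SD, n = 3). FD, the partner of the flowering signal at the apex, averaged 0.573 ± 0.178 CPM in pistils against 19.3 ± 4.07 CPM in meristems (SD, n = 3; log2 fold change -5.07 ± 0.28, edgeR adjusted p = 1.3e-05). SVP, a repressor of flowering that also acts in floral meristems, averaged 2.37 ± 0.479 CPM in pistils against 43.7 ± 5.33 CPM in meristems (SD, n = 3; log2 fold change -4.20 ± 0.18, edgeR adjusted p = 4.9e-06). TERMINAL FLOWER1 (TFL1), which keeps the main shoot from turning into a flower, stood at 10.7, 10.4 and 11.5 CPM in meristems and 1.26, 0.883 and 1.11 CPM in pistils (log2 fold change -3.32 ± 0.18, edgeR adjusted p = 1.3e-05). The signal gene FT itself had the opposite direction, with 18.6, 18.24 and 19.7 CPM in pistils and 0.514, 0.497 and 1.99 CPM in meristems (log2 fold change 4.19 ± 0.51, edgeR adjusted p = 0.00036). BFT, a relative of FT, LMI1 (HB51), a homeobox target of LFY, and AP2 were the other 3 members higher in pistils. BFT was near the limit of detection, with 32 counts in pistils and 3 in meristems. SPL5, SPL9, SMZ, TOE2, TOE3 and MFT did not pass, and their levels overlapped between the groups.

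Stem cell genes were mostly higher in meristems, by smaller factors. Of the 30 members tested, 2 were higher in pistils, 20 in meristems and 8 did not pass (median log2 fold change -0.84). KNAT6 and KNAT2, KNOX homeobox genes of the shoot apex and its boundaries, averaged 1.72 ± 0.473 CPM in pistils against 66.4 ± 12.7 CPM in meristems and 3.86 ± 0.649 CPM in pistils against 26.8 ± 4.26 CPM in meristems (SD, n = 3). SHOOT MERISTEMLESS (STM), the KNOX gene without which no shoot meristem forms, stood at 111, 104 and 149 CPM in meristems and 28.2, 24.6 and 21.0 CPM in pistils (log2 fold change -2.302 ± 0.18, edgeR adjusted p = 4.8e-05). The stem cell organiser gene WUSCHEL (WUS) had 2 counts in pistils and 162 in meristems, a meristem to pistil CPM ratio of 50.01 (95% counting interval 13.6 to 416). STM therefore stood at 21.0 to 28.2 CPM in the pistil libraries whereas WUS was at 0 to 0.0332 CPM there. LSH3, a boundary gene next to the meristem, averaged 0.722 ± 0.134 CPM in pistils against 29.5 ± 7.56 CPM in meristems (SD, n = 3; log2 fold change -5.35 ± 0.25, edgeR adjusted p = 7.3e-06). CLAVATA1, the receptor kinase of the stem cell feedback loop, differed little, with 37.6, 37.7 and 44.2 CPM in meristems and 28.6, 30.1 and 35.3 CPM in pistils (log2 fold change -0.35 ± 0.12, edgeR adjusted p = 0.034). Its call was lost without pistil library 1 or 2 or meristem library 1 or 3 (edgeR adjusted p from 0.0504 to 0.106). CLAVATA2 and the related receptors BAM1, BAM2 and BAM3 did not pass. The 2 members higher in pistils were FANTASTIC FOUR2 (FAF2), with 75.8, 108 and 73.1 CPM in pistils and 12.5, 7.4 and 15.6 CPM in meristems (log2 fold change 2.85 ± 0.29, edgeR adjusted p = 0.00016), and SHEPHERD (SHD), an endoplasmic reticulum chaperone, with 666, 714 and 661 CPM in pistils and 446, 362 and 505 CPM in meristems.

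Boundary genes, which hold organs apart, went the same way with 3 exceptions. Of the 17 members tested, 3 were higher in pistils, 9 in meristems and 5 did not pass (median log2 fold change -1.86). CUP-SHAPED COTYLEDON1 (CUC1) averaged 0.373 ± 0.209 CPM in pistils against 6.30 ± 0.705 CPM in meristems (SD, n = 3), and CUC2 averaged 2.3 ± 0.243 CPM in pistils against 9.99 ± 1.37 CPM in meristems (SD, n = 3), both higher in meristems. LOF1 (MYB117), a MYB gene of organ axils, stood at 27.9, 24.8 and 27.7 CPM in meristems and 1.09, 1.34 and 1.05 CPM in pistils (log2 fold change -4.52 ± 0.14, edgeR adjusted p = 1.6e-06). The 3 members higher in pistils were SUPERMAN (SUP), RABBIT EARS (RBE) and LBD36 (ASL1). SUP, a zinc finger gene of the stamen and carpel border and of the outer integument, stood at 7.36, 8.80 and 6.98 CPM in pistils and 1.17, 0.732 and 1.05 CPM in meristems (log2 fold change 2.96 ± 0.23, edgeR adjusted p = 4.9e-05).

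Every floral organ identity gene tested passed, in either direction. Of the 16 members tested, 10 were higher in pistils, 6 in meristems and 0 did not pass (median log2 fold change 1.75). AGAMOUS (AG), which specifies stamens and carpels, averaged 51.7 ± 5.09 CPM in pistils against 14.0 ± 4.73 CPM in meristems (SD, n = 3; log2 fold change 1.88 ± 0.25, edgeR adjusted p = 0.00051). SEPALLATA2 (SEP2), a cofactor of the organ identity genes, stood at 288, 301 and 259.8 CPM in pistils and 52.2, 46.6 and 30.4 CPM in meristems, and SEP1 and SEP3 were likewise higher in pistils. Those higher in meristems were AP1, UFO, AGL6, SEP4 and the petal and stamen genes AP3 and PISTILLATA (PI). PI stood at 57.9, 46.3 and 25.3 CPM in meristems and 13.6, 5.51 and 4.91 CPM in pistils (log2 fold change -2.43 ± 0.46, edgeR adjusted p = 0.003). AP3 was close between the tissues, with 49.6, 38.5 and 25.7 CPM in meristems and 23.8, 24.3 and 22.5 CPM in pistils (log2 fold change -0.69 ± 0.22, edgeR adjusted p = 0.028). Its call was lost when any 1 library except meristem library 3 was left out (edgeR adjusted p from 0.057 to 0.0834).

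Genes that set the growth of leaves and floral organs leaned to the meristem samples, which include young buds. Of the 36 members tested, 10 were higher in pistils, 21 in meristems and 5 did not pass (median log2 fold change -0.90). GIF1 (AN3), a coactivator of cell proliferation in organs, stood at 469.6, 477 and 459.9 CPM in meristems and 66.3, 57.8 and 62.4 CPM in pistils (log2 fold change -2.92 ± 0.10, edgeR adjusted p = 2.2e-06). Its partner GROWTH-REGULATING FACTOR1 (GRF1) averaged 20.15 ± 1.99 CPM in pistils against 89.6 ± 6.28 CPM in meristems, and GRF9 averaged 2.57 ± 0.339 CPM in pistils against 19.1 ± 1.43 CPM in meristems (SD, n = 3). KLUH (CYP78A5), a cytochrome P450 that prolongs organ growth, averaged 1.29 ± 0.542 CPM in pistils against 76.2 ± 6.42 CPM in meristems (SD, n = 3; log2 fold change -5.86 ± 0.27, edgeR adjusted p = 6.9e-06). Among those higher in pistils were ARGOS and ARL, which promote organ size, with 18.5 ± 1.82 CPM in pistils against 0.678 ± 0.387 CPM in meristems and 90.02 ± 10.9 CPM in pistils against 4.27 ± 1.87 CPM in meristems, respectively. ROTUNDIFOLIA3 (ROT3), a cytochrome P450 of brassinosteroid synthesis that lengthens organs, stood at 33.7, 39.95 and 29.7 CPM in pistils and 2.3, 2.75 and 2.50 CPM in meristems (log2 fold change 3.78 ± 0.15, edgeR adjusted p = 4.0e-06).

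Genes of mitosis and cytokinesis were mostly higher in meristems: of the 47 members tested, 2 were higher in pistils, 34 in meristems and 11 did not pass (median log2 fold change -0.55). Genes of DNA replication were not: of the 45 members tested, 16 were higher in pistils, 3 in meristems and 26 did not pass (median log2 fold change 0.36). Their share higher in pistils is close to the 31.8% of all genes tested. In the mutants, fitted without library 3 of the ful-1 pistils, the median log2 fold change was -0.60 for the mitosis list and -0.07 for the replication list. The plant-specific cyclin-dependent kinase CDKB1;2 stood at 23.3, 20.17 and 17.7 CPM in meristems and 2.16, 2.19 and 1.81 CPM in pistils (log2 fold change -3.31 ± 0.16, edgeR adjusted p = 8.0e-06), and CDKB2;1, its mitotic relative, at 82.7, 80.3 and 92.0 CPM in meristems and 41.8, 41.0 and 43.3 CPM in pistils (log2 fold change -1.02 ± 0.09, edgeR adjusted p = 7.9e-05). KNOLLE (SYP111), the syntaxin of the cell plate, stood at 129, 119 and 116 CPM in meristems and 64.1, 64.2 and 64.4 CPM in pistils (log2 fold change -0.92 ± 0.08, edgeR adjusted p = 8.9e-05). The KNOLLE call was lost in a fit of all 12 libraries (edgeR adjusted p = 0.0988). CDKB1;2 was the 1 mitotic gene past 4-fold of the 47 tested. The 2 members higher in pistils were SIAMESE (SIM), an inhibitor of mitotic kinases with 15.4, 16.9 and 13.4 CPM in pistils and 7.16, 6.36 and 9.53 CPM in meristems (log2 fold change 0.98 ± 0.18, edgeR adjusted p = 0.0025), and the cyclin CYCA3;1. CYCA3;1 averaged 12.2 ± 1.01 CPM in pistils against 8.12 ± 1.68 CPM in meristems (log2 fold change 0.59 ± 0.17, edgeR adjusted p = 0.021), and its call was lost without pistil library 1, pistil library 2 or meristem library 2 (edgeR adjusted p 0.0732, 0.0571 and 0.0595).

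In the replication list, the origin recognition genes ORC1A, ORC1B and ORC6 were higher in pistils. ORC6 stood at 19.6, 11.4 and 12.4 CPM in pistils and 4.25, 3.37 and 2.58 CPM in meristems (log2 fold change 2.09 ± 0.27, edgeR adjusted p = 0.00051), and ORC1A at 6.87, 7.28 and 7.31 CPM in pistils and 2.78, 1.73 and 2.24 CPM in meristems (log2 fold change 1.66 ± 0.21, edgeR adjusted p = 0.00039). ORC1B differed less, with 13.1, 14.4 and 12.3 CPM in pistils and 7.90, 6.28 and 6.88 CPM in meristems. The 3 members higher in meristems were PCNA2, a sliding clamp of DNA polymerase, POLD4, a polymerase subunit, and RNR2A, a subunit of ribonucleotide reductase. PCNA2 averaged 29.97 ± 5.01 CPM in pistils against 52.8 ± 12.96 CPM in meristems (SD, n = 3; log2 fold change -0.82 ± 0.20, edgeR adjusted p = 0.0088), while RNR2A averaged 33.1 ± 6.73 CPM in pistils against 44.2 ± 2.7 CPM in meristems and was just past the threshold (edgeR adjusted p = 0.048). The RNR2A call was lost without each of pistil libraries 1 and 3 and meristem libraries 1, 2 and 3 (edgeR adjusted p 0.0725 to 0.101). It was also lost under other scalings (0.0635 and 0.0599), the filter of 1 CPM (0.0586), the DESeq2 Wald test (0.0571) and the fit of all 12 libraries (0.533). The calls of PCNA2 (edgeR adjusted p = 0.263) and POLD4 (0.442) were lost in the fit of all 12 libraries too. The number of replication genes higher in pistils depended on single libraries: it was 25 without meristem library 1, and 10 without meristem library 2 or without pistil library 2. The number higher in meristems was 6 without meristem library 3.

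**Figure D4:**
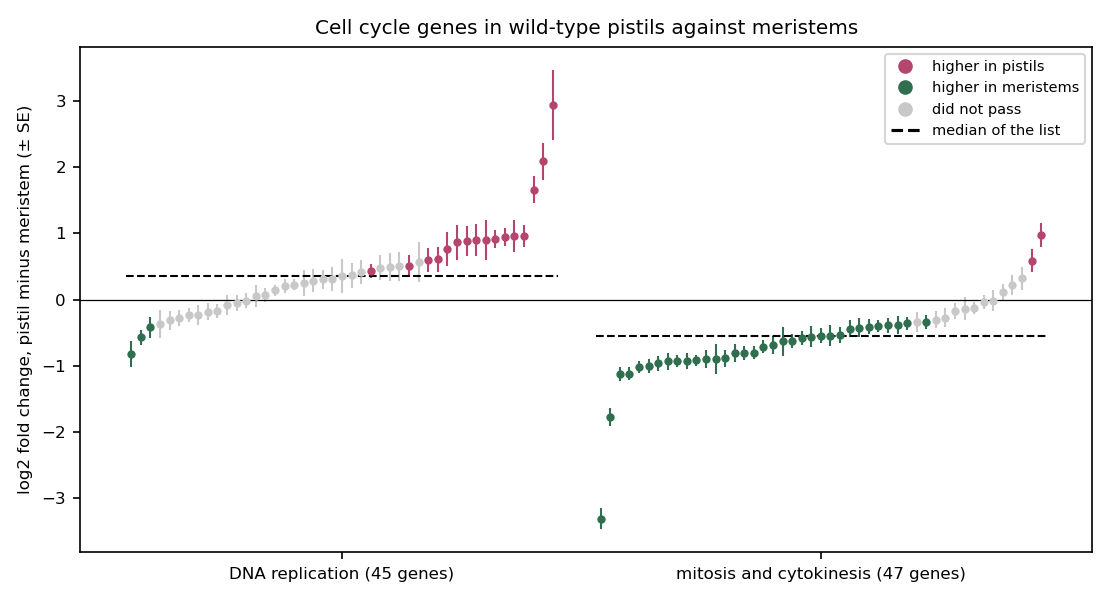
Log2 fold change, pistil minus meristem, with its SE, for each tested member of the cell cycle lists, ordered within a list, with a dashed line at the list's median. The median of the mitosis list is -0.55 and that of the DNA replication list is 0.36.

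The promoters of both lists were searched for a pair of short sequences. In a window of 300 bases, 250 before and 50 after each RefSeq gene start of TAIR10.1, the mitosis-specific activator core CNAACGG was found on either strand in 34.0% of the mitosis list and in 5.79% of all genes tested. The E2F site TTTCCCGC was found in 31.1% of the replication list and in 0.830% of all genes tested. Neither motif holds the letters of the other. The match counts describe letters, not bound sites. Of the 16 mitotic genes with CNAACGG, 13 were higher in meristems and 0 in pistils, and of the 31 without it 21 were higher in meristems and 2 in pistils. Of the 14 replication genes with TTTCCCGC, 6 were higher in pistils and 0 in meristems, and of the 31 without it 10 and 3. The 250 bases before the start are shown for 3 genes of each kind, chosen from the matching genes after their values were seen, to show where the letters lie. Capitals mark each match to either motif, on either strand. The mitotic genes are the cyclin gene CYCB1;1 (chr4:17624309-17624558, minus strand), the cyclin gene CYCB2;2 (chr4:16901346-16901595, plus strand) and KINESIN-12B, a motor of the phragmoplast (chr3:8518886-8519135, plus strand). The replication genes are the helicase subunits MCM2 (chr1:16969964-16970213, plus strand) and MCM6 (chr5:18010668-18010917, minus strand), and the origin subunit ORC2 (chr2:15758351-15758600, plus strand).
CYCB1;1: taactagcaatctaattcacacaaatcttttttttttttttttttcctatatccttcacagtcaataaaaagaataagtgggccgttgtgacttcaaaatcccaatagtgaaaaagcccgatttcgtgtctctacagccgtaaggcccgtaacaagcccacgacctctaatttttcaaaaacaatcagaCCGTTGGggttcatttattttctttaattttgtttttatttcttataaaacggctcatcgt
CYCB2;2: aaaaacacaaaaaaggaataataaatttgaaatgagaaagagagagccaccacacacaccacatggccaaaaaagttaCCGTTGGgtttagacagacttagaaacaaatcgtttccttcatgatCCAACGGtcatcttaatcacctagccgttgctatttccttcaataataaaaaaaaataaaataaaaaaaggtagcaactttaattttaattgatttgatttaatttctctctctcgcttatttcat
KINESIN-12B: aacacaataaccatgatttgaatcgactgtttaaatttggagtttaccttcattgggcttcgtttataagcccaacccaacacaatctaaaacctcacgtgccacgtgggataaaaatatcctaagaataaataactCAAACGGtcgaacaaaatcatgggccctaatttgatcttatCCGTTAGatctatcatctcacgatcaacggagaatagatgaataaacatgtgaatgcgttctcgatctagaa
MCM2: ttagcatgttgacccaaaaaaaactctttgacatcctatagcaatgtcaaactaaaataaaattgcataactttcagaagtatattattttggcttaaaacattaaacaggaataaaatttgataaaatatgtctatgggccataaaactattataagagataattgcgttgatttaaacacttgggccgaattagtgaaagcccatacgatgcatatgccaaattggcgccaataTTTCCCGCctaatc
MCM6: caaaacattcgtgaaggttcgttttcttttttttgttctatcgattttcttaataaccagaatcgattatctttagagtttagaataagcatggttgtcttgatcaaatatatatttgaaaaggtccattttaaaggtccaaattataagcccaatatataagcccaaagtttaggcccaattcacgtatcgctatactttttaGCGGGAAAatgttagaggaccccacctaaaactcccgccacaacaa
ORC2: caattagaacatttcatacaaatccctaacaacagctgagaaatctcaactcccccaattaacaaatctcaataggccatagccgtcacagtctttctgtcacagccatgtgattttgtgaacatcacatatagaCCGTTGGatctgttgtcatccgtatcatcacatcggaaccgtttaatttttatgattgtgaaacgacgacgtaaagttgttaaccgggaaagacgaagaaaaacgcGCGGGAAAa

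The match of CYCB1;1 starts 61 bases before the gene start, and those of CYCB2;2 at 172 and 126 bases and of KINESIN-12B at 113 and 72 bases. The E2F letters start at 14 bases in MCM2, 46 in MCM6 and 9 in ORC2, whose window also holds the mitotic core, at 115 bases. CYCB1;1 averaged 14.1 ± 0.720 CPM in pistils against 28.1 ± 2.95 CPM in meristems (SD, n = 3; log2 fold change -1.001 ± 0.11, edgeR adjusted p = 0.00024). CYCB2;2 averaged 12.5 ± 1.19 CPM in pistils against 19.3 ± 0.670 CPM in meristems (SD, n = 3; log2 fold change -0.62 ± 0.11, edgeR adjusted p = 0.0018), and KINESIN-12B averaged 33.5 ± 2.81 CPM in pistils against 48.6 ± 6.16 CPM in meristems (SD, n = 3; log2 fold change -0.54 ± 0.12, edgeR adjusted p = 0.006). For the replication genes, MCM2 averaged 61.5 ± 12.0 CPM in pistils against 33.2 ± 9.85 CPM in meristems (log2 fold change 0.89 ± 0.23, edgeR adjusted p = 0.012), MCM6 averaged 42.9 ± 10.6 CPM in pistils against 25.3 ± 8.06 CPM in meristems (log2 fold change 0.76 ± 0.26, edgeR adjusted p = 0.034) and ORC2 averaged 4.80 ± 0.968 CPM in pistils against 2.55 ± 0.947 CPM in meristems (log2 fold change 0.91 ± 0.30, edgeR adjusted p = 0.033). The calls of MCM6 and ORC2 were lost without pistil library 1 or 2 or meristem library 2 or 3 (edgeR adjusted p from 0.0654 to 0.104 for MCM6 and from 0.0734 to 0.106 for ORC2). In a fit of all 12 libraries, the calls of MCM2 (edgeR adjusted p = 0.0564), MCM6 (0.097), ORC2 (0.128) and CYCB2;2 (0.0978) were lost.

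Genes that slow the cell cycle or drive endoreduplication, in which DNA is copied without division, were split. Of the 20 members tested, 7 were higher in pistils, 7 in meristems and 6 did not pass (median log2 fold change 0.01). The kinase inhibitor KRP1 (ICK1) stood at 2.55, 2.28 and 3.27 CPM in pistils and 0.137, 0.262 and 0.438 CPM in meristems (log2 fold change 3.26 ± 0.43, edgeR adjusted p = 0.00051), and LGO (SMR1), which sends epidermal cells into endoreduplication, at 8.33, 7.86 and 7.28 CPM in pistils and 2.61, 2.41 and 3.98 CPM in meristems (log2 fold change 1.38 ± 0.22, edgeR adjusted p = 0.0014). Other inhibitors of the same KRP family went the other way: KRP3 (ICK6) averaged 2.93 ± 0.575 CPM in pistils against 10.7 ± 2.19 CPM in meristems and KRP5 (ICK3) averaged 4.73 ± 0.361 CPM in pistils against 12.8 ± 1.35 CPM in meristems (SD, n = 3). Cytosolic ribosomal proteins were nearly level in the wild types, whereas their median log2 fold change was -0.65 in the mutants without library 3 of the ful-1 pistils. Of the 27 members tested, 2 were higher in pistils, 7 in meristems and 18 did not pass (median log2 fold change -0.04), and 4 rather than 7 were higher in meristems without pistil library 2, meristem library 1 or meristem library 2. The 2 higher in pistils were RPS6A and RPL21C, known as a plastid protein although it is in the list, and RPL3B had the lowest log2 fold change of the list (-1.59). Of the list's promoters, 59.3% held the site II letters TGGGCC and 48.1% the telo box AAACCCTA, against 16.9% and 5.65% of all genes tested.

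DNA methylation and small RNA genes were also balanced. Of the 40 members tested, 10 were higher in pistils, 10 in meristems and 20 did not pass (median log2 fold change -0.02). ARGONAUTE9 (AGO9), an Argonaute known from ovules, stood at 141, 156 and 181 CPM in pistils and 45.9, 47.9 and 38.0 CPM in meristems (log2 fold change 1.86 ± 0.14, edgeR adjusted p = 4.1e-05), and its relative AGO3 averaged 3.18 ± 1.43 CPM in pistils against 0.414 ± 0.0191 CPM in meristems (SD, n = 3). SGS3, a partner of the polymerase RDR6 in the trans-acting small RNA pathway, averaged 126 ± 5.68 CPM in pistils against 45.8 ± 1.4 CPM in meristems (SD, n = 3; log2 fold change 1.47 ± 0.08, edgeR adjusted p = 1.4e-05). VIM1, which maintains CG methylation in dividing cells, stood at 144, 133 and 125 CPM in meristems and 43.8, 48.5 and 43.0 CPM in pistils (log2 fold change -1.57 ± 0.10, edgeR adjusted p = 2.0e-05). So both directions held genes that differed by more than the spread of their libraries.

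Genes of the cuticle and of secondary walls were mostly higher in pistils. In the cuticle and wax list, of the 34 members tested, 26 were higher in pistils, 1 in meristems and 7 did not pass (median log2 fold change 1.12). CYP77A6, a cytochrome P450 of floral cutin, stood at 50.8, 63.2 and 38.8 CPM in pistils and 3.44, 2.41 and 5.43 CPM in meristems (log2 fold change 3.74 ± 0.32, edgeR adjusted p = 7.8e-05), and its partner CYP86A8 averaged 79.4 ± 8.81 CPM in pistils against 11.7 ± 1.69 CPM in meristems (SD, n = 3). CUS2 (AT5G33370), a cutin synthase that maintains cuticular ridges, averaged 100.1 ± 26.7 CPM in pistils against 14.2 ± 3.46 CPM in meristems (SD, n = 3). SHINE1 (SHN1), a wax and cutin regulator, was the 1 member higher in meristems, with 3.22, 3.66 and 2.07 CPM in meristems and 0.299, 0.152 and 0.205 CPM in pistils (log2 fold change -3.76 ± 0.38, edgeR adjusted p = 0.00015). In the lignin and secondary wall list, of the 37 members tested, 24 were higher in pistils, 2 in meristems and 11 did not pass (median log2 fold change 1.43). PAL1, the entry enzyme of phenylpropanoid synthesis, stood at 116, 186 and 105 CPM in pistils and 12.3, 12.1 and 17.37 CPM in meristems (log2 fold change 3.28 ± 0.26, edgeR adjusted p = 5.9e-05). The laccases LAC11 and LAC17, which polymerise lignin, averaged 8.46 ± 2.03 CPM in pistils against 0.319 ± 0.0549 CPM in meristems and 19.1 ± 3.43 CPM in pistils against 2.32 ± 0.313 CPM in meristems (SD, n = 3). The 2 members higher in meristems were NST1 and IRX10 (GUT2), a wall regulator and a xylan synthase. NST1, a master gene of secondary walls in the fruit valve margin, was low everywhere, with 1.54, 1.36 and 2.09 CPM in meristems and 0.796, 0.244 and 0.760 CPM in pistils (log2 fold change -1.47 ± 0.44, edgeR adjusted p = 0.022). The IRX10 call was lost without pistil library 1 (edgeR adjusted p 0.0682).

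The families that loosen walls did not move as a block. For the expansins, of the 21 members tested, 9 were higher in pistils, 7 in meristems and 5 did not pass (median log2 fold change 0.22). EXPA11 stood at 45.1, 40.4 and 26.0 CPM in pistils and 1.18, 0.576 and 1.58 CPM in meristems (log2 fold change 5.02 ± 0.37, edgeR adjusted p = 4.1e-05), and the expansin-like EXLA1 at 86.9, 66.8 and 76.1 CPM in pistils and 0.394, 0.732 and 1.72 CPM in meristems (log2 fold change 6.31 ± 0.46, edgeR adjusted p = 4.0e-05). EXPB3 stood at 129, 94.99 and 161 CPM in meristems and 37.8, 56.7 and 29.8 CPM in pistils (log2 fold change -1.63 ± 0.28, edgeR adjusted p = 0.0017), so members of the same family had opposite directions. For the xyloglucan endotransglucosylases, which cut and rejoin wall polymers, of the 24 members tested, 14 were higher in pistils, 5 in meristems and 5 did not pass (median log2 fold change 2.07). XTH24 stood at 89.7, 46.9 and 71.4 CPM in pistils and 1.80, 1.67 and 1.15 CPM in meristems (log2 fold change 5.50 ± 0.31, edgeR adjusted p = 1.4e-05), and XTH32 at 54.0, 49.5 and 49.3 CPM in meristems and 7.83, 10.3 and 4.21 CPM in pistils (log2 fold change -2.78 ± 0.29, edgeR adjusted p = 0.00018). For the aquaporins, which pass water through membranes, of the 22 members tested, 9 were higher in pistils, 7 in meristems and 6 did not pass (median log2 fold change 0.08). The abundant vacuolar TIP1;1 (GAMMA-TIP) averaged 377 ± 46.3 CPM in pistils against 798 ± 79.1 CPM in meristems (SD, n = 3), while the plasma membrane PIP2;6 (PIP2E) averaged 133 ± 19.6 CPM in pistils against 42.2 ± 5.88 CPM in meristems (SD, n = 3). The pollen aquaporins TIP5;1 and TIP1;3 were higher in pistils, TIP5;1 with 22.2, 10.2 and 13.8 CPM in pistils and 1.1, 1.1 and 1.23 CPM in meristems (log2 fold change 3.74 ± 0.31, edgeR adjusted p = 6.9e-05).

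Of the flavonoid genes, 4 late enzymes and carriers were close to absent from the meristem libraries. Of the 19 members tested, 14 were higher in pistils, 1 in meristems and 4 did not pass (median log2 fold change 1.79). Dihydroflavonol reductase (DFR), the first enzyme committed to anthocyanins and tannins, stood at 56.9, 58.6 and 42.3 CPM in pistils and 0.137, 0.105 and 0.236 CPM in meristems (log2 fold change 8.29 ± 0.27, edgeR adjusted p = 1.7e-06). LDOX, which follows DFR, stood at 105, 113 and 65.2 CPM in pistils and 0.189, 0.157 and 0.405 CPM in meristems (log2 fold change 8.48 ± 0.38, edgeR adjusted p = 5.5e-06). Its sequence is near-identical in part to AT4G22870. The anthocyanin glycosyltransferase UF3GT averaged 54.4 ± 17.41 CPM in pistils against 0.356 ± 0.408 CPM in meristems, and the glutathione transferase TT19 (GSTF12), which carries the pigments to the vacuole, averaged 56.7 ± 15.3 CPM in pistils against 0.372 ± 0.247 CPM in meristems (SD, n = 3). These 4 genes had lower levels in pistil library 3 than in pistil libraries 1 and 2, and none overlapped the meristem libraries. MYB12, which drives the early flavonol steps, was the 1 member higher in meristems, with 9.80, 6.88 and 6.02 CPM in meristems and 2.06, 3.23 and 1.67 CPM in pistils (log2 fold change -1.71 ± 0.30, edgeR adjusted p = 0.0021). The G-box letters CACGTG were found in 31.6% of the list's promoter windows and in 7.98% of those of all genes tested. DFR (chr5:17166033-17166282, minus strand) and UF3GT (chr5:21938397-21938646, minus strand), which hold the letters, are shown as the 250 bases before the start, with each match in capitals.
DFR: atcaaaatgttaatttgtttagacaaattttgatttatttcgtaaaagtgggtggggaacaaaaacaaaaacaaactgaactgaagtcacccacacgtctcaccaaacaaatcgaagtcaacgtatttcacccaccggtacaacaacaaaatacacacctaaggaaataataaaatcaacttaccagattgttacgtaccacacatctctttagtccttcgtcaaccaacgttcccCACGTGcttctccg
UF3GT: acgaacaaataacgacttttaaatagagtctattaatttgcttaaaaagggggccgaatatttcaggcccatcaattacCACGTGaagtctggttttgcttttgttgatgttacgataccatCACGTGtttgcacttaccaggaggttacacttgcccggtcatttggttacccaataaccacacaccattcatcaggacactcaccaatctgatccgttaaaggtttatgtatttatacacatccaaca

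The match lies 14 bases before the start in DFR, and 171 and 128 bases before it in UF3GT. The letters describe the sequence alone.

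Photosynthesis genes mostly differed by small factors. For photosystem and light-harvesting genes, of the 44 members tested, 15 were higher in pistils, 1 in meristems and 28 did not pass (median log2 fold change 0.32). The light-harvesting gene LHCB1.4 (LHB1B1) stood at 463, 470.4 and 574 CPM in pistils and 48.4, 60.8 and 10.4 CPM in meristems (log2 fold change 3.66 ± 0.59, edgeR adjusted p = 0.0014), and PSBO2, a subunit of the oxygen-evolving complex, averaged 324 ± 5.95 CPM in pistils against 146 ± 12.5 CPM in meristems (SD, n = 3; log2 fold change 1.15 ± 0.10, edgeR adjusted p = 7.7e-05). In LHCB1.4 as in the list's sum, meristem library 3 was the lowest. LHCB4.3 was the 1 member higher in meristems (log2 fold change -0.65 ± 0.20, edgeR adjusted p = 0.026), a call lost without any of the 3 pistil libraries in turn (edgeR adjusted p 0.0519 to 0.0853), and without meristem library 3 there were 5 such members. For carbon fixation, of the 21 members tested, 14 were higher in pistils, 0 in meristems and 7 did not pass (median log2 fold change 0.59). The lean to pistils did not recur in the mutants, fitted without library 3 of the ful-1 pistils. There the median was -0.28 for photosystem and light-harvesting genes and -0.04 for carbon fixation. The Rubisco small subunit gene RBCS2B stood at 803, 881 and 983 CPM in pistils and 106, 87.4 and 135 CPM in meristems (log2 fold change 3.02 ± 0.19, edgeR adjusted p = 2.1e-05), and Rubisco activase (RCA) at 1232, 1369.8 and 1340.5 CPM in pistils and 593, 579 and 598 CPM in meristems (log2 fold change 1.16 ± 0.11, edgeR adjusted p = 0.0001). Plastid-encoded genes took 0.189 to 0.394% of the counts in pistils and 0.576 to 0.812% in meristems, and their part in these values was not tested.

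The stomatal lineage list held genes of successive steps and was divided between the tissues. Of the 29 members tested, 11 were higher in pistils, 7 in meristems and 11 did not pass (median log2 fold change 0.14). MUTE, which ends the divisions of the lineage, averaged 3.25 ± 0.285 CPM in pistils against 0.825 ± 0.0663 CPM in meristems (SD, n = 3; log2 fold change 1.97 ± 0.21, edgeR adjusted p = 0.00021). MYB60, a guard cell gene, averaged 2.54 ± 0.305 CPM in pistils against 0.125 ± 0.0674 CPM in meristems (SD, n = 3; log2 fold change 4.25 ± 0.40, edgeR adjusted p = 0.00011), and ICE1, a partner of the lineage factors, stood at 169, 183 and 177 CPM in pistils and 72.0, 66.2 and 68.7 CPM in meristems (log2 fold change 1.36 ± 0.09, edgeR adjusted p = 2.1e-05). The polarity genes of the dividing lineage cells, BASL and POLAR (AT4G31805), were higher in meristems, with 1.94 ± 0.375 CPM in pistils against 5.10 ± 1.11 CPM in meristems and 2.82 ± 0.447 CPM in pistils against 14.9 ± 2.59 CPM in meristems (SD, n = 3). EPF2, an early secreted signal of the lineage, was likewise higher in meristems (log2 fold change -1.72 ± 0.25, edgeR adjusted p = 0.00078). The myrosinase TGG2, also known from guard cells, was the member furthest towards meristems (log2 fold change -7.04 ± 0.20, edgeR adjusted p = 1.3e-06). With its abundant RNA included, the list summed to 2529 to 3210 CPM in pistils and 7584 to 8169 CPM in meristems. Of the 4 stomata markers, 1 was higher in pistils and 1 in meristems, and they summed to 42.1, 52.4 and 36.0 CPM in pistils and 48.6, 49.0 and 69.4 CPM in meristems.

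Pollen genes were present in the pistil samples. Of the 33 members tested, 29 were higher in pistils, 1 in meristems and 3 did not pass (median log2 fold change 5.10). Their summed level was 2790, 978 and 1810 CPM in pistil libraries 1, 2 and 3 and 157, 136 and 163 CPM in the meristem libraries. BCP1, a pollen protein gene, stood at 218, 81.6 and 131 CPM in pistils and 1.78, 1.12 and 2.33 CPM in meristems (log2 fold change 6.33 ± 0.46, edgeR adjusted p = 3.9e-05). MYB120, a factor of the pollen tube, stood at 11.1, 8.47 and 8.65 CPM in pistils and 0.0343, 0.0785 and 0.0506 CPM in meristems (log2 fold change 7.43 ± 0.30, edgeR adjusted p = 4.0e-06). The sucrose carrier SUC9 had 1414 counts in pistils and 2 in meristems. Pollen RNA thus ranked library 1 above 3 above 2, whereas MYB120 and SUC9 varied less. PRK6, the pollen tube receptor for LURE1, averaged 12.3 ± 3.62 CPM in pistils against 0.113 ± 0.106 CPM in meristems (SD, n = 3; log2 fold change 6.64 ± 0.50, edgeR adjusted p = 4.6e-05). The 1 member higher in meristems was AGL65, a pollen MADS-box gene, with 5.24, 7.46 and 5.55 CPM in meristems and 4.74, 3.68 and 3.27 CPM in pistils (edgeR adjusted p = 0.036), a call lost without pistil library 2, pistil library 3 or meristem library 2 (edgeR adjusted p 0.0969, 0.114 and 0.105).

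Stamen genes went the other way. Of the 19 members tested, 4 were higher in pistils, 11 in meristems and 4 did not pass (median log2 fold change -1.71). The summed level of the list did not follow that direction throughout. It was 170, 197 and 165 CPM in pistils and 128, 123 and 298 CPM in meristems, where only library 3 exceeded the pistil libraries. AMS, a basic helix-loop-helix factor of the tapetum, stood at 4.80, 4.50 and 5.63 CPM in meristems and 0.0995, 0.152 and 0.146 CPM in pistils (log2 fold change -5.19 ± 0.28, edgeR adjusted p = 1.1e-05), and ACOS5, an enzyme of the pollen wall precursors, averaged 0.208 ± 0.106 CPM in pistils against 7.30 ± 2.54 CPM in meristems (SD, n = 3). Of the 11 defining anther and tapetum markers, 6 were higher in meristems, 0 in pistils and 5 were too low to test. Their sum was 43.9, 45.2 and 136 CPM in meristem libraries 1, 2 and 3 and 14.1, 11.3 and 16.0 CPM in pistils, where DYT1 had 0 counts. The 4 list members higher in pistils were MYB21, MYB24, MYB26 and the receptor kinase EMS1. MYB21, a jasmonate-responsive factor of stamen and pistil growth, stood at 54.5, 70.6 and 32.1 CPM in pistils and 0.0343, 0.0785 and 0.202 CPM in meristems (log2 fold change 8.88 ± 0.52, edgeR adjusted p = 1.6e-05), and MYB24, its close relative, had 854 counts in pistils and 3 in meristems. The sums of the pollen and the stamen markers move with the tissue, and their part in the other lists was not tested.

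Hormone genes showed no common direction by hormone. For auxin, of the 39 members tested, 12 were higher in pistils, 12 in meristems and 15 did not pass (median log2 fold change 0.13). AXR3 (IAA17), a repressor of auxin responses, stood at 77.8, 93.6 and 79.6 CPM in pistils and 3.27, 1.80 and 2.53 CPM in meristems (log2 fold change 5.03 ± 0.22, edgeR adjusted p = 5.4e-06), and the efflux carrier PIN4 averaged 29.5 ± 4.23 CPM in pistils against 7.91 ± 1.05 CPM in meristems (SD, n = 3). YUC1, an enzyme of auxin synthesis in young primordia, averaged 0.165 ± 0.0481 CPM in pistils against 1.43 ± 0.385 CPM in meristems (SD, n = 3; log2 fold change -3.10 ± 0.39, edgeR adjusted p = 0.00039). For cytokinin, of the 35 members tested, 9 were higher in pistils, 13 in meristems and 13 did not pass (median log2 fold change -0.19). The degrading enzymes of the CKX family differed in direction, since CKX4 stood at 5.74, 9.97 and 2.73 CPM in meristems and 0.0332, 0.0914 and 0.0292 CPM in pistils (log2 fold change -6.82 ± 0.72, edgeR adjusted p = 0.00018), while CKX2 had 171 counts in pistils and 3 in meristems. The receptor AHK4 (WOL) averaged 14.4 ± 2.06 CPM in pistils against 55.4 ± 8.5 CPM in meristems (SD, n = 3) and was higher in meristems. For gibberellin, of the 29 members tested, 12 were higher in pistils, 10 in meristems and 7 did not pass (median log2 fold change 0.06), and 10 members were at least 4-fold higher in pistils against 1 in meristems. GA20OX2, which makes gibberellin precursors, stood at 37.0, 44.4 and 45.9 CPM in pistils and 1.44, 1.2 and 2.24 CPM in meristems (log2 fold change 4.68 ± 0.24, edgeR adjusted p = 9.7e-06), and the DELLA repressor RGL2 averaged 72.5 ± 5.36 CPM in pistils against 7.07 ± 0.973 CPM in meristems (SD, n = 3; log2 fold change 3.36 ± 0.13, edgeR adjusted p = 3.4e-06). GA2OX1 (ATGA2OX1), which inactivates gibberellin, stood at 24.6, 24.0 and 20.3 CPM in meristems and 2.95, 3.08 and 2.95 CPM in pistils (log2 fold change -2.94 ± 0.13, edgeR adjusted p = 5.1e-06).

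Stress and defence hormones were balanced as well. For jasmonate and wounding, of the 25 members tested, 8 were higher in pistils, 8 in meristems and 9 did not pass (median log2 fold change -0.13). LOX2, a lipoxygenase at the start of jasmonate synthesis, stood at 958, 1115 and 585 CPM in pistils and 69.4, 41.2 and 45.4 CPM in meristems (log2 fold change 4.09 ± 0.32, edgeR adjusted p = 5.1e-05), and the thionin THI2.1 at 657, 716 and 544 CPM in pistils and 33.3, 45.2 and 42.9 CPM in meristems (log2 fold change 3.98 ± 0.18, edgeR adjusted p = 5.5e-06). VSP2, a wound-induced acid phosphatase, stood at 1026, 1034 and 1799 CPM in meristems and 525, 370.5 and 288 CPM in pistils (log2 fold change -1.71 ± 0.30, edgeR adjusted p = 0.0021), and the cyclase AOC2 of jasmonate synthesis averaged 0.237 ± 0.0263 CPM in pistils against 7.60 ± 2.31 CPM in meristems (SD, n = 3). So the 2 directions were met within the same pathway. For abscisic acid and dehydration, of the 33 members tested, 11 were higher in pistils, 9 in meristems and 13 did not pass (median log2 fold change 0.27). ABI5, a factor of seed maturation, averaged 59.5 ± 2.68 CPM in pistils against 17.8 ± 1.32 CPM in meristems (SD, n = 3; log2 fold change 1.74 ± 0.09, edgeR adjusted p = 1.1e-05), while the dehydrin LTI30 stood at 9.22, 9.68 and 13.8 CPM in meristems and 0.265, 0.365 and 0.526 CPM in pistils (log2 fold change -4.80 ± 0.30, edgeR adjusted p = 2.1e-05). Of the 8 heat shock genes tested, only HSP18.2 passed, and it was higher in meristems with 24.3, 20.4 and 11.4 CPM in meristems and 2.26, 2.16 and 1.72 CPM in pistils (log2 fold change -3.19 ± 0.31, edgeR adjusted p = 0.00012). The median of that list was -0.21, with 7 members not past the test.

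Genes of the glucosinolate system, the mustard oil defence, were among the most abundant genes that differed. Of the 27 members tested, 13 were higher in pistils, 8 in meristems and 6 did not pass (median log2 fold change 0.68). The myrosinase TGG2, which starts glucosinolate breakdown, stood at 4092, 4409.5 and 3901 CPM in meristems and 33.4, 35.4 and 25.7 CPM in pistils (log2 fold change -7.04 ± 0.20, edgeR adjusted p = 1.3e-06). EPITHIOSPECIFIER PROTEIN (ESP, AT1G54040), which steers that breakdown to nitriles, stood at 2266, 1723 and 2063 CPM in pistils and 7.56, 9.18 and 11.7 CPM in meristems (log2 fold change 7.73 ± 0.25, edgeR adjusted p = 1.7e-06). ESP activity is known to be present in Ler and not in Col-0. ESP was also chosen for the list of genes known to vary between the 2 ecotypes. In that list, of the 18 members tested, 4 were higher in pistils, 9 in meristems and 5 did not pass (median log2 fold change -0.53). AOP3, a side chain enzyme known to be expressed in Ler, stood at 12.2, 12.9 and 10.02 CPM in pistils and 0.0514, 0 and 0.0674 CPM in meristems (log2 fold change 7.95 ± 0.41, edgeR adjusted p = 9.7e-06). FRI, an activator of the floral repressor FLC, averaged 1.15 ± 0.192 CPM in pistils against 10.6 ± 1.22 CPM in meristems (SD, n = 3). MAF5, a relative of FLC, stood at 12.3, 12.6 and 10.96 CPM in pistils and 1.23, 1.05 and 1.72 CPM in meristems (log2 fold change 3.15 ± 0.21, edgeR adjusted p = 2.9e-05). ERECTA itself (AT2G26330) averaged 223 ± 11.6 CPM in pistils against 573 ± 106 CPM in meristems (SD, n = 3; log2 fold change -1.36 ± 0.15, edgeR adjusted p = 0.00021). In these genes strain and organ cannot be told apart.

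Counts per kilobase of exon allow levels of different genes to be set side by side. Among pistil-marking genes, CAB3 had the highest level per length, with a stretch of 836 bases 96.1% identical to CAB1 that leaves the split of reads between them uncertain. It was followed by AT1G48750, whose exons lie wholly within another gene's, and by ESP. The CAB3 call was lost without pistil libraries 1, 2 or 3 or meristem library 2 in turn (edgeR adjusted p 0.0539 to 0.0724). GILT (AT4G12960), whose name is that of a thiol reductase family, stood at 520.4, 753 and 755 CPM in pistils and 0.137, 0.0523 and 0.303 CPM in meristems (log2 fold change 11.88 ± 0.43, edgeR adjusted p = 2.6e-06), the widest difference of these 10 abundant genes. Among meristem-marking genes, TGG2 was highest per length. ECS1 stood at 613, 749 and 359.9 CPM in meristems and 0.597, 0.396 and 0.380 CPM in pistils (log2 fold change -10.29 ± 0.41, edgeR adjusted p = 3.5e-06), and EXT3, a wall extensin, at 889, 734 and 2104 CPM in meristems and 13.2, 26.3 and 29.3 CPM in pistils (log2 fold change -5.76 ± 0.55, edgeR adjusted p = 0.00012). AGP31, an arabinogalactan protein, averaged 441 ± 82.5 CPM in pistils against 2032 ± 327 CPM in meristems (SD, n = 3).

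The genes with the largest fitted differences were at or near 0 in 1 tissue, where a fitted fold change is no bound, so folds are given against 3 counts over the group. AT1G72290, a gene of the Kunitz protease inhibitor family, had 41140 counts in pistils and 0 in meristems and was at least 22210-fold higher in pistils. AT1G30795 had 22634 counts in pistils and 0 in meristems and was at least 12220-fold higher there. TPS21, a sesquiterpene synthase of the flower's scent, had 32356 counts in pistils and 1 in meristems, a CPM ratio of 52410 (95% counting interval 9406 to 2070000). These genes were therefore abundant in pistils and almost without reads in the meristems. The subtilase SBT4.13 had 20690 counts in pistils and 3 in meristems, and the prenyltransferase cPT6 had 5898 counts in pistils and 0 in meristems. On the meristem side, AT5G49440 had 0 counts in pistils and 32715 in meristems and was at least 6732-fold higher in meristems. The retroelement SADHU1-1 had 2 counts in pistils and 37952 in meristems, and AT4G07825 had 0 counts in pistils and 20610 in meristems. AT5G50565 and AT5G50665 are near-identical copies with 5393 and 5392 counts in meristems and 0 each in pistils, and cannot be told apart.

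Genes were called silent in 1 tissue when they had at most 3 counts over its 3 libraries and at least 5 CPM in every library of the other. There were 125 such genes in the meristems and 50 in the pistils. Of the 125, 112 code for proteins and 9 are pseudogenes, and they include INO, IND, MYB24 and SUC9. All 125 were below 0.1 CPM in the ful-7 meristems, of the same ecotype and tissue, and 112 were at 5 CPM or more in the ful-1 pistils. Of the 50 silent in pistils, 29 code for proteins and 13 are pseudogenes. In the ful-1 pistils 46 of the 50 were below 0.1 CPM and 2 were at 1 CPM or more. YLMG1-2 (AT4G27990) was 1 of these 2, with 0 counts in the Ler wild-type libraries, 2574 in the Col-0 meristems and 14.7 CPM in ful-1 pistils. It lies in the same stretch as UBC9, which encodes a ubiquitin-conjugating enzyme. UBC9 had 19 counts over the Ler wild-type libraries, 11858 over the Col-0 meristems and 4656 over the ful-1 pistils. AT4G27940, CRF4 and SLAH2, of the same stretch, had 18, 7 and 1 counts over the Ler wild-type libraries. They had 1452, 2235 and 236 over the Col-0 meristems and 722, 302 and 199 over the ful-1 pistils. The cause of this was not tested. Some silent genes were neighbours: 16 of the 50 and 27 of the 125 lay next to another of their set, and the longest stretch ran over 4 genes from AT4G09464 to AT4G09467. Of these neighbours, 15 of the 16 and 2 of the 27 share exons with another of their set, so that reads can be counted in both. The 4 genes of the longest stretch are near-identical copies (98.7% to 99.8% over at least 465 bases). CPM in this paragraph are scaled to total counts alone.

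Gene kinds were unevenly represented among the marking genes. Of 379 pseudogenes tested, 48.8% were pistil-marking and 26.6% meristem-marking. Of 21735 protein-coding genes tested, 13.9% and 4.83% were. A pseudogene can pass the filter on low counts through 1 tissue alone, so these shares describe the tested genes only. The site II letters TGGGCC were found in 5.63% of the promoters of pistil-marking genes and in 9.26% of those of meristem-marking genes, against 16.9% of all genes tested.

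The same tissue difference was set beside that between ful-1 pistils in Ler and ful-7 meristems in Col-0, which share no library with the wild types but share their ecotypes. Library 3 of the ful-1 pistils stands apart from the others in that set, and values are given without it first. In that fit 17625 of 25239 genes passed the adjusted p of 0.05 (69.8%), and 4142 were at least 4-fold higher in pistils (16.4%) and 1822 were higher in meristems (7.22%). Of the 3446 wild-type pistil-marking genes, 3375 were tested in the mutants, 3347 had the same direction and 3074 were at least 4-fold higher in mutant pistils. These 3074 are 89.2% of the wild-type set and 74.2% of the mutant set. Of the 1362 meristem-marking genes, 1349 were tested, 1338 had the same direction and 1119 were at least 4-fold higher in mutant meristems, which are 82.2% of the wild-type set and 61.4% of the mutant set. With all 6 mutant libraries, 3210 of 23914 genes (13.4%) and 1501 genes (6.28%) passed, and 2574 and 1006 of the wild-type marking genes were among them. Since ecotype differs in the same way in both sets, the shared genes do not separate organ from strain.

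**Figure D5:**
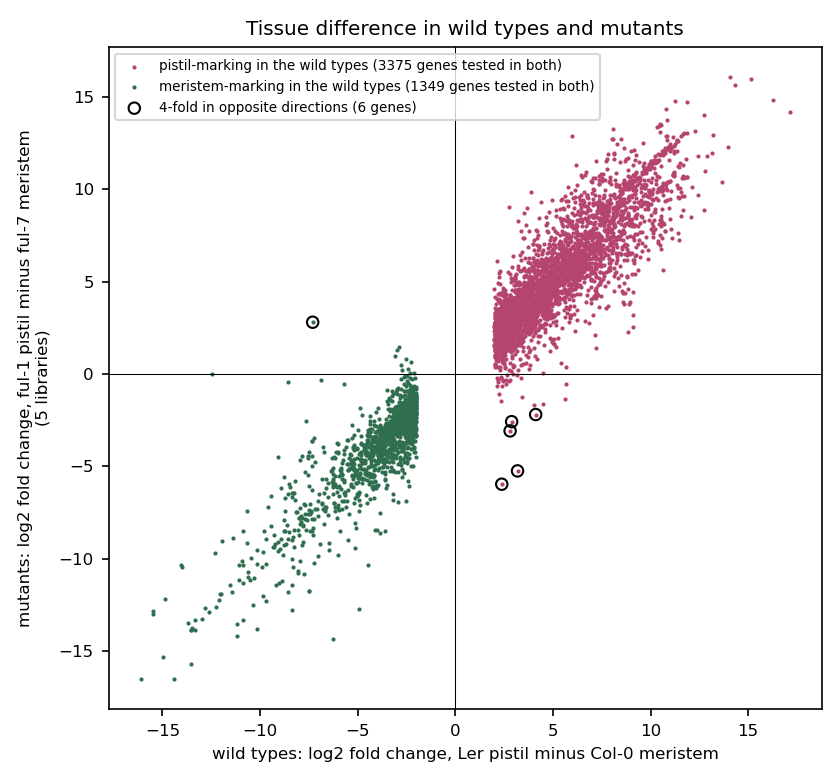
Log2 fold change between ful-1 pistils and ful-7 meristems in 5 mutant libraries (vertical) against that between wild-type Ler pistils and Col-0 meristems in 6 libraries (horizontal), a point for each gene tested in both. Of the 3375 pistil-marking genes drawn, 3347 lie above 0 in the mutants, and 6 named genes lie past 4-fold in opposite directions.

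There were 6 genes past 4-fold in both sets with opposite directions, and they were singled out after their values were seen. CORI3, a jasmonate-induced gene, and AT1G04660, AT1G13609, CYP71A13 and AT5G35935 were higher in pistils than in meristems in the wild types and lower in the mutants. AT4G27980, of the same stretch as UBC9 and YLMG1-2, was higher in meristems in the wild types and higher in pistils in the mutants. CORI3 stood at 51.5, 42.9 and 22.1 CPM in pistils and 5.43, 5.47 and 4.87 CPM in meristems in the wild types (log2 fold change 2.89 ± 0.30, edgeR adjusted p = 0.00018).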

How the data were processed

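RNA was sequenced as paired reads of 150 bases from stranded libraries, per the labels' protocols. The authors deposited raw counts per gene for 36917 genes in 12 libraries. Reads were aligned to TAIR10 with STAR 2.7.0b and counted with featureCounts 1.6.0, per the submitters' processing notes. The deposited counts do not separate strands: of 43 opposite-strand gene pairs sharing 90% or more of their exons, 42 had counts within 10% of each other, so overlapping genes share counts.

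Wild-type libraries were fitted alone with edgeR 4.0.16 (R 4.3.3): TMM scaling, filterByExpr, the quasi-likelihood F test and Benjamini-Hochberg adjustment over 24009 genes, with a biological coefficient of variation of 0.195. Fold changes are pistil over meristem, and each SE was taken from the fold change and its F statistic. CPM are TMM-scaled except for the sums of markers, CPM ratios from counts, silent genes and the closer look at genes opposite in the mutants. There they are scaled to total counts. Calls need an adjusted p under 0.05. Mutants were fitted likewise, and the difference between the 2 sets was tested as a contrast over 12 libraries. DESeq2 1.42.0 was an alternative. Total counts per library, given with the results, set the precision. Exact 95% intervals and the floor of 3 counts cover counting error only.

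The members and the 33 gene lists were chosen with earlier results of these data known. Named genes are, per list, those with the smallest p in each direction (up to 4 each), any member of the fruit and carpel, stem cell, floral transition and ecotype lists, FUL, the 12 largest differences of genes of at least 5 CPM and the 10 highest marking genes per kilobase in each direction, and the 5 most abundant silent genes per side with runs of at least 3 neighbours. Others named were chosen after their values were seen. Of 252 of these named genes, 61 overlap another gene's exons and 11 have a near-identical stretch elsewhere (at least 100 bases at 95% identity, blastn 2.17.0). Promoters are RefSeq's for TAIR10.1. The fit was tested on simulated data with 200 well-expressed genes changed by 2-fold or 4-fold, equally in both directions, and the same dispersion for every gene. That setting holds far fewer changes than these data, so it does not test the scaling or the calls here. Results of some genes are not reported here.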

Additional observations from a re-analysis of the deposited data

Results flagged for a closer look

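There were 6 genes at least 4-fold different between pistils and meristems in both the wild types and the mutants but in opposite directions, and the difference between the sets was tested as an edgeR contrast over all 12 libraries, and over 11 without library 3 of the ful-1 pistils. The genes were picked for this opposition in the same libraries, so a large difference was nearly fixed in advance by the choice. The p-values and the lack of overlap given below are therefore no independent support. CPM here are scaled to total counts alone, not by TMM. For AT1G04660 the log2 fold change in the wild types exceeded that in the mutants by 8.56 (adjusted p = 0.000299; 8.37 over 11 libraries), with 32.1, 45.5 and 15.6 CPM in wild-type pistils and 0.209, 0.109 and 0 CPM in ful-1 pistils. For AT1G13609 the difference was 6.5 (adjusted p = 0.000951; 6.35 over 11), with 0.0334 to 0.0522 CPM in Col-0 and 7.08 to 9.95 CPM in ful-7 meristems. For CYP71A13, an enzyme of camalexin synthesis, it was 6.28 (adjusted p = 0.024; 5.92 over 11), with 0.184 to 0.870 CPM in Col-0 and 9.53 to 12.7 CPM in ful-7 meristems. For CORI3 it was 5.69 (adjusted p = 0.000951; 5.50 over 11), with 22.1 to 50.8 CPM in wild-type and 0.303 to 1.89 CPM in ful-1 pistils. For AT5G35935 it was 7.48 (adjusted p = 0.00332; 8.48 over 11), with 0.0334 to 0.188 CPM in Col-0 and 41.6 to 50.04 CPM in ful-7 meristems. For AT4G27980 it was -9.81 (adjusted p = 0.000198; -10.08 over 11), with 0 to 0.0584 CPM in wild-type and 12.1 to 44.5 CPM in ful-1 pistils. In AT1G13609, CYP71A13 and AT5G35935 the values of ful-7 and Col-0 meristems do not overlap, and in AT1G04660, CORI3 and AT4G27980 those of ful-1 and Ler pistils do not overlap.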

How the results depend on the processing

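The 14614 calls ranged from 12904 to 15882 under other scalings, filters and tools. They ranged from 12476 to 15705 when a library was left out in turn (6655 to 8360 higher in pistils, 5821 to 7345 higher in meristems). With all 12 libraries in 1 fit, mutants included, there were 10191 calls, and 4420 genes rather than 6978 were higher in meristems. At 2-fold there were 8013 genes in place of 4808, 3180 of them in meristems, and at 8-fold 761 in meristems. The 4-fold counts lay between 4986 and 5249 without a library (3516 to 3808 in pistils, 1386 to 1472 in meristems). They depended more on the low-count filter. At 1 CPM or more in 3 libraries there were 3519 (2439 in pistils, 1080 in meristems), and 6449 with no filter. The DESeq2 Wald test gave 6018. The mutant counts lay between 4196 and 5964 without a library (2937 to 4142 in pistils, 1259 to 1822 in meristems). Genes silent in pistils numbered 24 at 0 counts and 113 at 1 CPM, and those silent in meristems 56 and 519. FUL's log2 fold change ranged from -0.34 to 0.03 without a library and changed sign without meristem library 3. The cause of these changes was not tested. The median log2 fold change over all genes was 0.013, and 0.027 and 0.042 under other scalings. Of the 282 named genes followed, 26 lost their call in the 12-library fit. No paired analysis was possible because the columns carry no replicate numbers. Depth limits genes under 3 counts.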
